A study of Mus musculus with 11 samples.

Results

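Mouse chromosome 15 was followed from end to end in 11 mammary tumours of Pik3ca H1047R mice by array comparative genomic hybridisation, which weighs the DNA content of a tumour against that of normal tissue at many fixed positions. The members were all genomic probes that the array places on chromosome 15, 6681 of 170305 probes, and they ran from chr15:3114799 to 103460314 of mouse build mm9, a span of 100.3 Mb with a median spacing of 11.0 kb. Of these probes 4396 carried a gene name, which gave 808 names, 354 of them with at least 3 probes, 132 with 2 and 322 with 1. The other 2285 probes lay outside named genes.

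All samples formed a single group (n = 11 animals, tumours 1 to 11). Both DNAs of an array came from 1 animal with the H1047R change in Pik3ca on a mixed FVBN/Bl6 background, the mammary tumour in Cy5 and the liver in Cy3. The promoter or Cre line behind the mutant allele and the age of the animals were not given in the sources used here. Every value below is a log2 ratio of tumour over liver after subtraction of the median of the array, so 0 stands for the middle of that tumour's own genome and 0.58 for 3 copies against 2 in every cell. In bulk DNA a gain in fewer cells and a smaller gain per cell cannot be told apart.

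Chromosome 15 carries Myc, the transcription factor gene that is recurrently amplified in human breast cancer, together with its neighbour Pvt1, a long non-coding RNA gene. The same chromosome holds Rictor, the defining subunit of the mTOR complex that phosphorylates Akt downstream of PI3-kinase, and Prlr, the receptor through which prolactin drives mammary differentiation. It also holds Eif3e, a subunit of translation initiation factor eIF3 that was first met as an insertion site of mouse mammary tumour virus, and Krt8 and Krt18, the paired keratins of luminal mammary epithelium. A gain of the whole chromosome raises all of these together, while a focal amplification raises a few of them above their neighbours, and the level by position tells these forms apart.

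The following 60-base probes are printed because the local readings turn on them: the only probe of each keratin, the 2 probes on either side of the start of Pvt1, and the 4 probes at the edges of the only deletion called on chromosome 15 in tumour 1. Sequences are those of the deposited array annotation, which gives no strand; capitals mark CG dinucleotides, which 36.7% of chromosome 15 probes and 35.7% of all probes contained. In this order they lie at chr15:101832473-101832532, chr15:101860554-101860613, chr15:61858806-61858865, chr15:61872889-61872948, chr15:32489539-32489598, chr15:32496417-32496476, chr15:33683945-33684004 and chr15:33701045-33701104.
Krt8: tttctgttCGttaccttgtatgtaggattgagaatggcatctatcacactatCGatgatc
Krt18: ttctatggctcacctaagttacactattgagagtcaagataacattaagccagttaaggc
Last probe before Pvt1: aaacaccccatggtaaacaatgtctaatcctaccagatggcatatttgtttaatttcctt
First probe of Pvt1: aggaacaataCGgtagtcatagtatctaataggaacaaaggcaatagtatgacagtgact
Last probe before the deletion, in Sema5a: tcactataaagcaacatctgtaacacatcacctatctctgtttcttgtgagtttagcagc
First probe of the deletion, in Sema5a: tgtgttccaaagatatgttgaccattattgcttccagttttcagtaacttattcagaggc
Last probe of the deletion: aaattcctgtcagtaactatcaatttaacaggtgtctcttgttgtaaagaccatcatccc
First probe after the deletion: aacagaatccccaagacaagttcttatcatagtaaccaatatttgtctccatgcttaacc

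The arrays lay on 3 slides of 3 to 4 arrays. The noise SD between neighbouring probes was 0.13 to 0.28 in 9 tumours, 0.55 in tumour 9 and 0.51 in tumour 11. Tumour 11 stood apart, because its 1 Mb profile along chromosome 15 ran opposite to those of most other tumours, most of all on its own slide: Pearson's r over 101 bins, which share the array design and the slide, was -0.69 against tumour 4, -0.57 against tumour 7 and -0.76 against tumour 9, while tumours 4 and 9 had an r of 0.79. On the other slides it was -0.54 against tumour 5, -0.42 against tumour 1, -0.39 against tumour 2 and 0.40 against tumour 6. Over the bins of the other autosomes the pairs within the slide had r of -0.67, -0.11, -0.68 and 0.76. A fit on GC content left their chromosome 15 values at -0.69, -0.52, -0.74 and 0.78. Whether the channels of tumour 11 were exchanged was not tested. Values with the sign of tumour 11 turned are given where they change a call or a mean by much.

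The first question was how high chromosome 15 stood in each tumour. The mean over its probes was lowest in tumour 10 at -0.0033, had a median of 0.10 over the 11 tumours and was highest in tumour 6 at 0.32. Tumour 8 followed at 0.31, tumour 3 at 0.27 and tumour 2 at 0.22. Tumour 7 stood at 0.16 and tumour 5 at 0.10, and tumours 4, 9 and 1 lay between 0.060 and 0.077. Tumour 11 had 0.0079. The heights depended on the centring of the array: centred on the mode of its ratios, tumour 7 stood at 0.077, tumour 4 at 0.032, tumour 9 at 0.022, tumour 1 at 0.020 and tumour 11 at 0.13. Tumours 2, 3, 6 and 8 were the 4 highest under both centrings, at 0.27 to 0.31 with the mode. With the median centring and as an average over all cells of the sample, these values equal 2.50 copies per diploid genome in tumour 6, 2.47 in tumour 8, 2.41 in tumour 3 and 2.34 in tumour 2, against 2.23 in tumour 7 and 2.00 in tumour 10.

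The mean over tumours was 0.14 ± 0.12 (SD, n = 11), above 0 in 10 of 11 tumours, and passed an exact two-sided sign-flip permutation test (p = 0.0020, adjusted p = 0.026 over 20 chromosomes, of which 15% passed in either direction). The adjusted exact p was 0.052 without tumour 1, 3, 4, 6, 8 or 9, with means from 0.13 to 0.15 and 9 of the 10 remaining tumours above 0. By slide, the mean was 0.27 over the 3 tumours of slide 1, 0.077 over the 4 of slide 2 and 0.12 over the 4 of slide 3, so that 3 of the 4 highest tumours shared a slide. With the median centring and among the 19 autosomes, chromosome 15 had the highest mean in tumours 3, 6 and 8, rank 2 in tumours 4, 5 and 7 and rank 3 in tumours 1, 2 and 9, but rank 12 in tumour 10 and rank 15 in tumour 11.

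**Figure D1:**
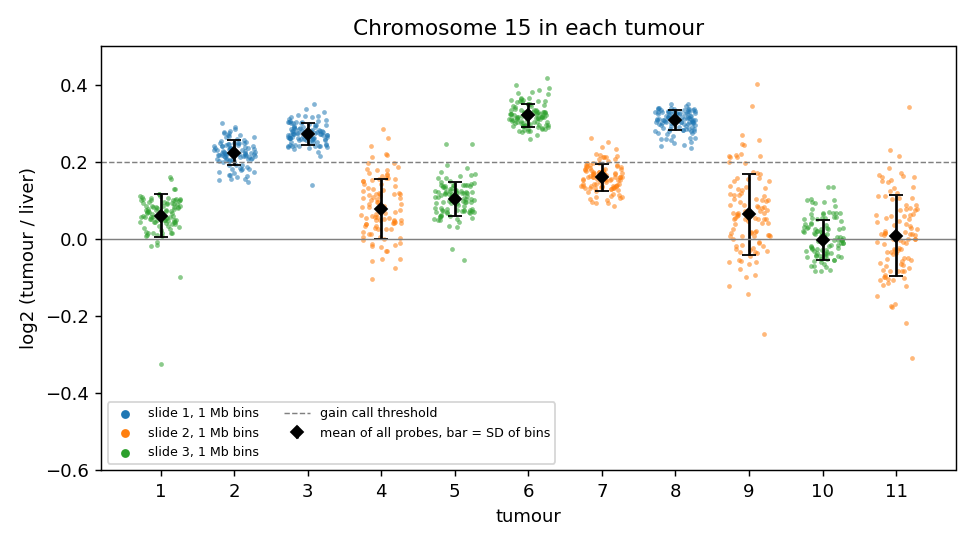
Log2 ratio of tumour over liver on chromosome 15 (vertical axis) in each of the 11 tumours (horizontal axis). Small points are the 101 bins of 1 Mb, coloured by slide, diamonds are the mean over all probes and bars the SD of the bins; the bins of tumours 2, 3, 6 and 8 sit around means of 0.22 to 0.32, and the lowest point is the -0.32 bin of tumour 1.

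Segmentation placed almost the whole chromosome in gain calls in 4 tumours, where a gain is a segment of at least 10 probes with a mean of at least 0.2. The share of chromosome 15 probes in gains was 100% in tumours 2 and 8, 99.8% in tumour 3 and 99.7% in tumour 6, against 21%, 14.6%, 11.6% and 10.8% of autosomal probes in the same tumours. The share was 2.87% in tumour 4 and 0.15% in tumour 5, against 4.92% and 0.0174% of autosomal probes. It was 0% in tumours 1, 7, 9, 10 and 11, where 6.09%, 5.91%, 0%, 0% and 0.897% of autosomal probes lay in gains. In tumour 2 the call rested on segments close to the threshold, with means of 0.20 over the first 22.7 Mb and 0.23 over the remaining 77.6 Mb. Tumour 7, just outside it, was a single segment of 0.16 from the first to the last probe. At a threshold of 0.3, tumours 6 and 8 remained, at 0.15 tumour 7 was added, and with normexp background correction tumour 2 lost its call.

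The second question was how even the level was along the chromosome. All 101 bins were above 0 in the 4 gained tumours and also in tumour 7, which had no gain call (lowest bin 0.085). In the gained tumours the SD of the bins was 0.033 in tumour 2, 0.029 in tumour 3, 0.030 in tumour 6 and 0.026 in tumour 8. The probe spread and the number of probes per bin alone give SDs of 0.030, 0.020, 0.018 and 0.018. The bins of tumour 6 ran from 0.26 to 0.42 and those of tumour 8 from 0.23 to 0.35, so every 1 Mb bin of both stayed above 0.2. The first 9 probes of tumour 6, too few for a call, averaged 0.17. Among the others the SD of the bins was 0.036 in tumour 7, 0.045 in tumour 5, 0.051 in tumour 10, 0.055 in tumour 1, 0.077 in tumour 4 and 0.10 in tumours 9 and 11, the noisiest arrays.

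The proximal and distal parts of the chromosome, split at 53287556, stood at the same height within the spread between tumours. The proximal minus the distal mean ran from -0.034 in tumour 9 to 0.061 in tumour 11 and averaged 0.00054 ± 0.028 (SD, n = 11), above 0 in 5 of 11 tumours (exact two-sided sign-flip permutation test, adjusted p = 0.96 over 20 chromosomes). Chromosome 3, the other chromosome whose mean was raised, had a mean bin SD of 0.080 against 0.054 on chromosome 15. The difference of -0.026 ± 0.064 (SD, n = 11), lower on chromosome 15 in 6 of 11 tumours, did not pass an exact two-sided sign-flip permutation test (p = 0.24), and it was -0.0093 without tumour 3, whose bins on chromosome 3 had an SD of 0.22.

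**Figure D2:**
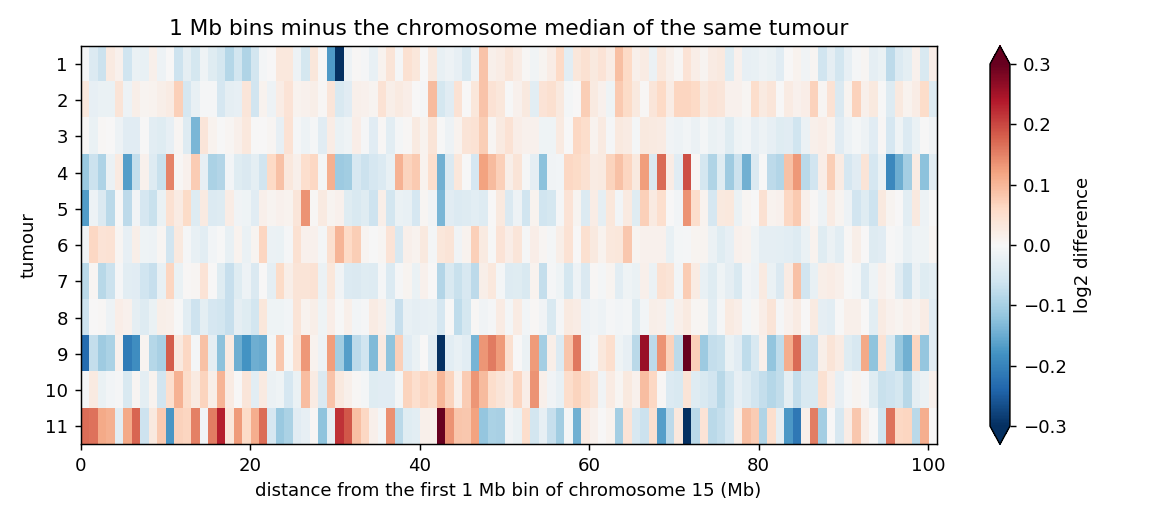
Bins of 1 Mb on chromosome 15 minus the chromosome median of the same tumour, with distance from the first bin on the horizontal axis, 1 row per tumour and the log2 difference as colour (limits -0.3 and 0.3). Rows 2, 3, 6 and 8 are pale over most of their length, row 1 holds the dark deletion bin, and row 11 shows colours opposite to those of row 9 (r = -0.76).

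By gene, 352 of the 354 tested chromosome 15 names had a mean above 0, with a median of 0.15, whereas the median over all 9384 genes tested was -0.011. In limma, 130 of the 354 (36.7%) were called higher than liver (mean of 0.1 or more, adjusted p under 0.05), and 0 were called lower. Over all genes tested, 4.66% were called higher and 2.29% lower. At an unadjusted limma p below 0.05 the count was 276 of 354 on chromosome 15, all higher. It was 423 of 488 on chromosome 3, all higher, and 50 of 355 on chromosome 17, 49 of them higher. The called genes of chromosome 15 ran from 0.13 to 0.27 and were above 0 in at least 8 tumours. Called names had a higher median mean than uncalled ones, 0.18 against 0.12, and a smaller median SD over tumours, 0.14 against 0.18. Both differences follow from the rule of the call, which asks for a mean that is large beside its spread.

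The number of called genes rested on the libraries. It was 57 without tumour 1, 31 without tumour 2, 8 without tumour 3, 48 without tumour 4, 53 without tumour 5, 16 without tumour 6, 35 without tumour 7 and 34 without tumour 8. It rose to 224 without tumour 11, and with the ratios of tumour 11 turned it was 200. With the arrays centred on the mode of their ratios it was 69, and with normexp background correction 201. With slide as a random block it was 222, at a fitted correlation within slides of -0.11. The block fit is therefore not a stricter reading.

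Among called genes with known roles, Deptor (Depdc6 on the array, an inhibitor that binds mTOR; 14 probes) ran from 0.035 in tumour 1 to 0.39 in tumour 8 with a median of 0.23, and its mean was 0.21 ± 0.13 (SD, n = 11; limma adjusted p = 0.018). All 11 tumours were above 0 at this gene. Stk3, a core kinase of the Hippo pathway (28 probes), had a mean of 0.19 ± 0.12 (SD, n = 11; limma adjusted p = 0.020), again above 0 in all 11 tumours. Gdnf, which encodes a ligand of the Ret receptor complex (3 probes), had 0.23 ± 0.14 (SD, n = 11; limma adjusted p = 0.016) and ran from 0.020 in tumour 10 to 0.45 in tumour 6. Ctnnd2, a delta-catenin gene with 83 probes, had 0.17 ± 0.12 (SD, n = 11; limma adjusted p = 0.023). Csmd3, the name with 120 probes, had 0.15 ± 0.11 (SD, n = 11; limma adjusted p = 0.035), and its difference from the chromosome median was -0.0024.

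**Figure D3:**
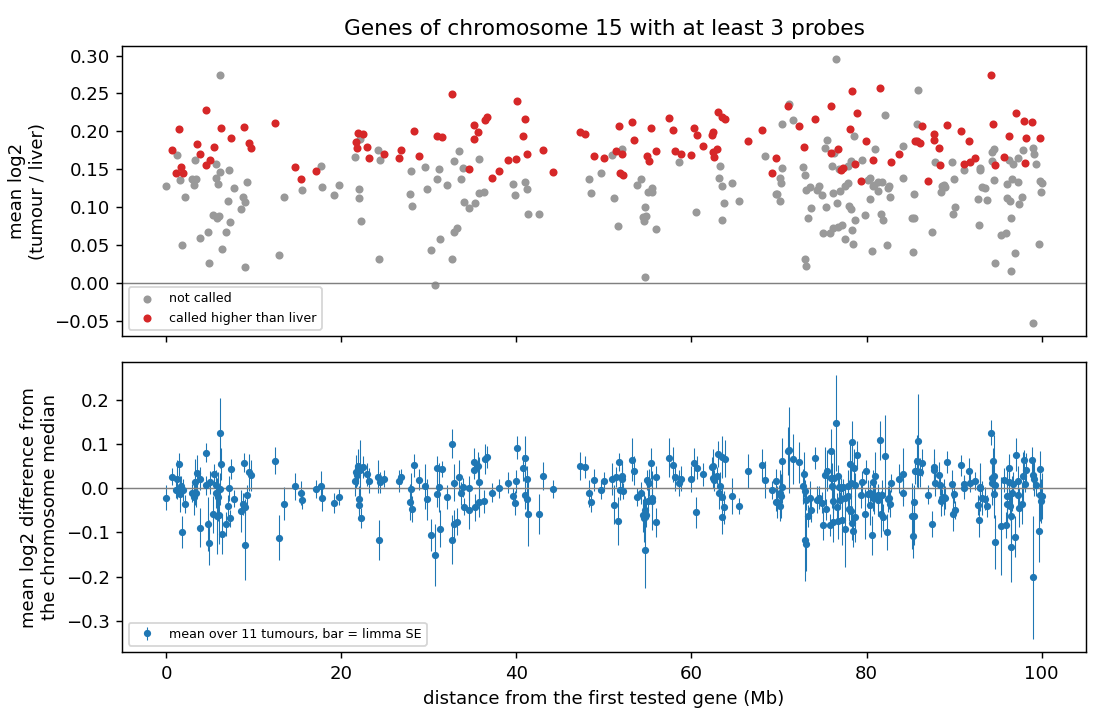
The 354 genes of chromosome 15 with at least 3 probes, by distance from the first gene in Mb. Upper panel, mean log2 ratio over 11 tumours with the 130 called genes in red; lower panel, mean log2 difference from the chromosome median with limma's SE, where no gene was called and means ran from -0.20 to 0.15.

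A further question was whether any site rose above the level of the chromosome. Each gene was therefore read as its mean minus the median of all chromosome 15 probes in the same tumour. In limma 0 of 354 genes were called higher and 0 lower (adjusted p below 0.05 and an absolute difference of at least 0.1), against 0.117% called higher and 0.064% lower over all genes tested. At an unadjusted p below 0.05 there were 46 of 354 genes, 17 of them higher, and the smallest adjusted p was 0.074. This count was 67 of 488, 23 higher, on chromosome 3 and 55 of 355, 28 higher, on chromosome 17. Of 101 bins of 1 Mb, 0 were called in either direction in limma, against 0% of 2383 bins over the autosomes. An unadjusted p below 0.05 was found in 5 of the 101 bins, 1 of them higher. Chromosome 3 had 16 of 157 such bins, 5 higher, and chromosome 17 had 10 of 93, 6 higher. Bin differences on chromosome 15 ran from -0.049 to 0.052.

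Some settings did call single genes against the chromosome level. Without tumour 11 limma called 2 higher and 5 lower: Rpap3 (0.13 above) and Ttc35 (0.11 above), and Atad2, Mtdh, Prkaa1, Spef2 and Zbed4 (differences of -0.22 to -0.13), a set named after its values were seen. Turning the sign of tumour 11 gave 6 higher and 12 lower, and with normexp background correction 5 higher and 5 lower. The share of all genes called under these settings is not given here. These counts are therefore not read as particular to chromosome 15. Rpap3, a subunit of the R2TP co-chaperone complex, was called higher in 5 settings, more often than any other gene. These were normexp, the slide block, and the fits with tumour 11 turned, left out, or left out together with tumour 9. Such settings share most arrays and are not independent. In the full set the 3 probes of Rpap3 (chr15:97512788-97526613) gave -0.036 in tumour 10, a median of 0.33 and 0.49 in tumour 8. It stood 0.12 ± 0.028 (limma SE, n = 11) above the chromosome in 10 of 11 tumours, with a limma adjusted p of 0.074. Ttc35, now named Emc2, a subunit of the endoplasmic reticulum membrane complex (4 probes), stood 0.091 ± 0.025 (limma SE, n = 11) above in 9 of 11 tumours (limma adjusted p = 0.14). Prkaa1, the catalytic AMPK subunit alpha 1 (3 probes), differed by -0.10 ± 0.036 (limma SE, n = 11; limma adjusted p = 0.25) and was below in 10 of 11 tumours, with tumour 11 the exception.

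The 5 genes with the highest mean difference were Pdgfb, Capsl, Rpap3, 5031439G07Rik and Sbf1, at 0.11 to 0.15, and the 5 lowest were Sp1, Mtdh, Atad2, 1700030F18Rik and Golph3, at -0.20 to -0.13. Several of these had single extreme tumours. Pdgfb, which encodes a platelet-derived growth factor chain (3 probes), ran from -0.65 in tumour 11 to 1.04 in tumour 9, Capsl had 1.14 in tumour 2 against 0.43 in the next tumour, and Sp1 ran from -1.05 in tumour 9 to 0.92 in tumour 11. Limma's adjusted p of these 10 differences was 0.56 for Pdgfb, 0.49 for Capsl, 0.074 for Rpap3, 0.29 for 5031439G07Rik and 0.66 for Sbf1. For the 5 lowest it was 0.53 for Sp1, 0.34 for Mtdh, 0.46 for Atad2, 0.46 for 1700030F18Rik and 0.48 for Golph3.

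Myc itself has no probe of its own name. The interval in which gene order places it, between AK132958 and Pvt1 (chr15:61627296-61858865, 10 probes), was at -0.056 in tumour 11, had a median of 0.092 and reached 0.34 in tumour 8. It lay at -0.020 ± 0.051 (SD, n = 11) from the chromosome median, above it in 4 of 11 tumours, and at -0.011 with tumour 11 turned. In the 4 gained tumours the interval stood at 0.11, 0.29, 0.27 and 0.34 in tumours 2, 3, 6 and 8, which put it between -0.094 and 0.027 from the chromosome median.

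Pvt1 (chr15:61872889-62080112, 23 probes) was at -0.24 in tumour 11, had a median of 0.20 and reached 0.35 in tumour 3. The gene was above 0 in 10 of 11 tumours, with a mean of 0.16 ± 0.16 (SD, n = 11) that missed the threshold (limma adjusted p = 0.056). Against the chromosome level it stood at 0.011 ± 0.030 (limma SE, n = 11; limma adjusted p = 0.89), higher in 7 tumours and lower in 4. The largest positive differences were 0.13 in tumour 9 and 0.11 in tumour 4, and tumour 11 was at -0.23. With tumour 11 turned, the mean of Pvt1 was 0.20 and passed (limma adjusted p = 0.0017), and without tumour 11 it was 0.20 as well (limma adjusted p = 0.0029). Its difference from the chromosome was then 0.053 (limma adjusted p = 0.17) and 0.035 (limma adjusted p = 0.28). The wider window with 1 Mb on both sides (113 probes) stood 0.023 ± 0.039 (SD, n = 11) above the chromosome.

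Rictor (chr15:6663941-6749876, 10 probes) ran from -0.11 in tumour 11 to 0.37 in tumour 3 with a median of 0.13. Tumours 3, 6, 8 and 2 were the 4 highest, at 0.37, 0.36, 0.27 and 0.26. Its mean of 0.14 ± 0.17 (SD, n = 11) missed the threshold (limma adjusted p = 0.10), and its difference from the chromosome was -0.011 ± 0.031 (limma SE, n = 11; limma adjusted p = 0.89). With tumour 11 turned the mean was 0.16 (limma adjusted p = 0.023) and without it 0.16 (limma adjusted p = 0.029), both past the threshold, while the difference from the chromosome was 0.0074 and -0.0023 (limma adjusted p = 0.89 and 0.97).

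Prlr (chr15:10116534-10265449, 17 probes) was between 0.20 and 0.26 in the 4 gained tumours, 0.060 in tumour 1 and between -0.13 and -0.0070 in the other 6. The gained tumours were defined by the ratios of this same chromosome, so their higher values at Prlr follow from the grouping. Its mean was 0.068 ± 0.14 (SD, n = 11; limma adjusted p = 0.38). Prlr lay below the chromosome median in 10 of 11 tumours, by a mean difference of -0.081 ± 0.027 (limma SE, n = 11), with a limma adjusted p of 0.20, or 0.086 with tumour 11 turned and 0.078 without it. The window with 1 Mb on both sides (164 probes) stood at -0.020 ± 0.025 (SD, n = 11).

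Eif3e (chr15:43086308-43112827, 3 probes) ran from -0.071 in tumour 9 to 0.29 in tumour 2 with a median of 0.057, and was above 0 in 10 of 11 tumours. Its mean was 0.12 ± 0.12 (SD, n = 11; limma adjusted p = 0.095), and its difference from the chromosome was -0.033 ± 0.026 (limma SE, n = 11; limma adjusted p = 0.59).

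The luminal keratins were read by a single probe each, printed above, and were not tested. The Krt8 probe ran from -0.72 in tumour 9 to 0.46 in tumour 11 with a median of -0.067, and in the gained tumours it stood at -0.096, 0.014, 0.0081 and -0.015 in tumours 2, 3, 6 and 8. It lay below the chromosome median in 10 of 11 tumours. The Krt18 probe ran from -0.80 in tumour 9 to 0.74 in tumour 11, and gave 0.23, 0.14, 0.34 and 0.28 in tumours 2, 3, 6 and 8. The 195 probes within 1 Mb of the Krt8 probe stood at 0.25, 0.26, 0.30 and 0.33 in these tumours, and their difference from the chromosome over all tumours was -0.012 ± 0.032 (SD, n = 11). The Krt18 probe was low in some of the tumours where the Krt8 probe was lowest, at -0.37 in tumour 4 and -0.32 in tumour 10. With tumour 11 turned the mean differences from the chromosome were -0.40 for the Krt8 probe and -0.25 for the Krt18 probe.

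**Figure D4:**
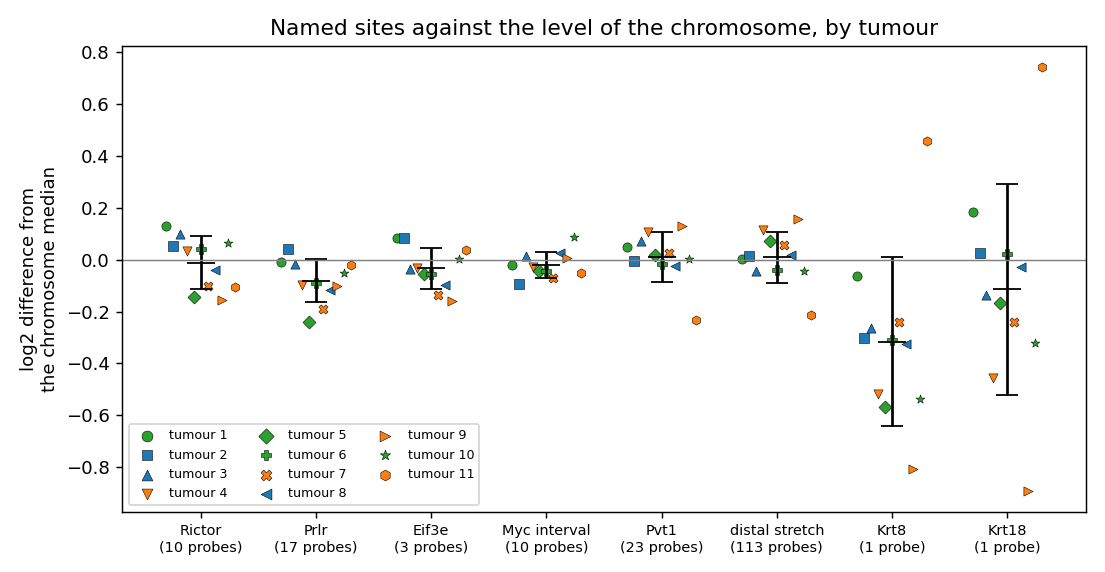
Log2 difference from the chromosome 15 median (vertical axis) at 8 named sites, with 1 symbol per tumour coloured by slide and bars for the mean and SD over 11 tumours. All sites read by 3 or more probes stay between -0.24 and 0.16 in every tumour, and the single probes of Krt8 and Krt18 spread from -0.89 to 0.74.

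The distal stretch at chr15:86002512-88170354 was chosen because it holds more gain calls than most of the chromosome, so its values are a description. Its 113 probes gave -0.22 in tumour 11, -0.044 in tumour 10, 0.073 in tumour 1 and 0.18 to 0.33 in the other 8, with a median of 0.22 over all. The fifth gain call came from tumour 4, whose segment at chr15:86158794-88415646 (105 probes) had a mean of 0.22. Tumour 11 had a loss at nearly the same place, chr15:86148680-88170354 (98 probes, mean -0.28). Against the chromosome median the stretch stood at 0.0086 ± 0.099 (SD, n = 11), higher in 7 of 11 tumours, and at 0.048 with the ratios of tumour 11 turned.

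The stretch holds probes of Cerk (ceramide kinase), Tbc1d22a (a Rab GTPase-activating protein), Fam19a5 (now Tafa5, a secreted chemokine-like protein) and the transcripts AK016029, AK020896, AK090307, AK019614 and AK045598. Tbc1d22a (31 probes) was at 0.17 and Fam19a5 (15 probes) at 0.23 in tumour 4, and at -0.095 and -0.25 in tumour 11. AK020896 (10 probes) ran from -0.19 in tumour 11 to 0.34 in tumour 8. In the gained tumours 2, 3, 6 and 8 the whole stretch differed from the chromosome median by 0.015, -0.043, -0.040 and 0.020. Over the whole chromosome 773 names lay inside gain calls of 4 tumours, 27 of 5 and 8 of 3.

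Tumour 4 had 3 further calls on the chromosome. A gain at chr15:73614365-75054266 (87 probes, 0.28) ran over Bai1 (now Adgrb1) and Arc, and losses lay at chr15:57805864-58094427 (31 probes, -0.20, over Zhx1 and Atad2) and chr15:102022656-102274008 (25 probes, -0.27, up to Sp1). Other tumours differed from their chromosome median in the same directions at these 3 places without calls. Tumour 9, on the same slide, differed by 0.31, -0.29 and -0.46, and tumour 7, also on that slide, by 0.073, -0.13 and -0.12. On other slides, tumour 5 differed by 0.11, -0.12 and -0.062 and tumour 1 by 0.0088, -0.0088 and -0.12. Tumour 8 differed by 0.019, -0.027 and -0.0092, and tumour 10 by 0.020, -0.048 and -0.075. The place of the gain was above the median in 8 of 11 tumours, and those of the losses in 1 and 2. Tumour 11 differed the opposite way, by -0.29, 0.16 and 0.52. The mean difference at the gain was 0.039 over all tumours and 0.091 with tumour 11 turned.

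Tumour 5 had a single call, a gain at chr15:63611555-63754443 (10 probes, 0.45) over the gasdermin C genes Gsdmc, Gsdmc2, Gsdmc3 and Gsdmc4, neighbouring copies of a family of pore-forming proteins. The same probes were high elsewhere: they lay above the chromosome median in 10 of 11 tumours, by 0.13 ± 0.15 (SD, n = 11), with 0.47 in tumour 9, 0.42 in tumour 6, 0.41 in tumour 8 and -0.16 in tumour 11. These probes had a GC content of 41.4% against 36.8% over chromosome 15, and a fit on GC lowered the mean difference to 0.061, while turning tumour 11 raised it to 0.16. Whether these copies share hybridisation signal was not tested, so the level of each gene is uncertain. Tumours 5 and 6 lay on slide 3, tumours 9 and 11 on slide 2 and tumour 8 on slide 1. The part of GC content and of the slide in these values was not tested further.

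The loss with the lowest mean on the chromosome was that of tumour 1, whose chromosome median was 0.070. It lay at chr15:32496417-33684004, was 1.19 Mb and 100 probes long, and had a mean of -0.37 and an SD of 0.20 over probes. Of these probes 99 were below 0, against 33.6% of its chromosome 15 probes in all. Loss calls covered 1.5% of the chromosome 15 probes and 20.2% of the autosomal probes of this tumour. The 10 other tumours gave 0.047 to 0.41 over the same probes.

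The deletion began inside Sema5a, a semaphorin of axon guidance. Its 32 probes before the edge stood at 0.11 ± 0.17 (SD over probes) in tumour 1 and its 14 probes beyond the edge at -0.25 ± 0.15. All 13 probes of Sdc2, a heparan sulfate proteoglycan of the cell surface, and all 48 probes of Pgcp (now Cpq, a carboxypeptidase) lay inside, at -0.42 ± 0.22 and -0.39 ± 0.18 (SD over probes). AK016384 (4 probes) gave -0.36, BC089548 -0.56 and ENSMUST00000069422 -0.35 by 1 probe each. The probe sequences at both edges are printed above: in tumour 1 they read -0.075 and -0.16 at the proximal edge and -0.61 and -0.039 at the distal one. The larger step between these neighbouring probes was at the distal edge, but each reading is 1 probe beside a noise SD of 0.16. The segment means of tumour 1 went from 0.086 to -0.37 at the proximal edge and from -0.37 to 0.088 at the distal one.

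Tumour 6, gained along the whole chromosome, had its highest bin (0.42) at the same place. Its segment at chr15:32638337-32840214, 9 probes and too short for a call, had a mean of 0.59, and the following 246 probes to 35743891 had 0.40, against 0.31 on the proximal side. That short segment began 141.9 kb beyond the first deleted probe of tumour 1. The other tumours gave -0.31 to 0.45 at the 9 probes, the lowest in tumour 1 and the highest in tumour 8. Against the chromosome median these probes stood 0.28 higher in tumour 6 and 0.36 higher in tumour 11. They were above it in 8 of 11 tumours, so the rise was not particular to tumour 6.

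**Figure D5:**
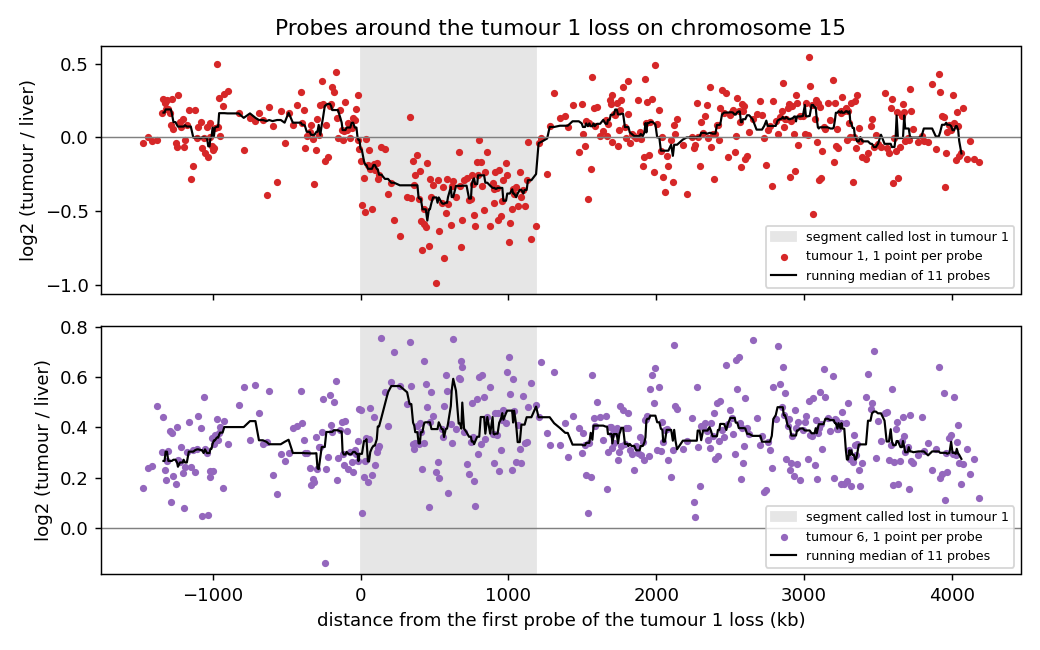
Log2 ratio of single probes (points) and a running median of 11 probes (line) in tumour 1 (upper panel) and tumour 6 (lower panel) by distance in kb from the first probe of the tumour 1 deletion, which is shaded. In tumour 1 the shaded 100 probes average -0.37, against a chromosome mean of 0.060, and in tumour 6 the same probes average 0.41.

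Tumour 3 had a short loss inside its gain, at chr15:15911073-16272782, where 14 probes averaged -0.22 against a chromosome median of 0.28. The only name there was U47865, a name that the array also gives to a probe on another chromosome, and the other 10 tumours gave -0.051 to 0.28 at these probes. Tumour 8 had no loss, and its 5 segments ran from 0.26 to 0.32.

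The remaining genes were read in 9 lists of 112 genes, of which 90 had a probe on chromosome 15 and 62 were tested. Limma called 21 of the 62 higher than liver and none lower, beside 36.7% of all tested chromosome 15 genes, and called none in any list against the chromosome level. Of the neighbours of Myc, 4 of 8 rose against liver, Gsdmc (0.20), Asap1 (0.20), Adcy8 (0.18) and Nsmce2 (0.17), while Atad2 had 0.0081; the median was 0.17. Of the receptors and ligands 3 of 9 rose, Gdnf (0.23), Osmr (0.18) and Angpt1 (0.16), with a median of 0.15. Lifr, the receptor of leukaemia inhibitory factor, had 0.060 (limma adjusted p = 0.54).

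Of the mTOR, AMPK and other kinase genes 4 of 9 rose, Deptor (0.21), Stk3 (0.19), Lrrk2 (0.18) and Irak4 (0.16), with a median of 0.16. Of the chromatin, repair and cell division genes 4 of 10 rose, among them the acetyltransferase gene Ep300 (0.20), Mtbp (0.17) and the cohesin loader Nipbl (0.16). Their median was 0.15. Of the transcription factors 2 of 9 rose, the vitamin D receptor gene Vdr (0.21) and Trps1 (0.20), with a median of 0.14. Of the cadherin, adhesion and large neuronal genes 4 of 11 rose, Cdh6 (0.18), Ctnnd2 (0.17), Dnahc5 (0.17) and Csmd3 (0.15), again with a median of 0.15.

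None of the 3 tested translation genes passed, with means of 0.085 (Larp4), 0.12 (Eif3e) and 0.14 (Eif3h), and none of the 3 Wnt pathway genes, with 0.12 (Celsr1), 0.13 (Rspo2) and 0.22 (Wnt7b). The 8 keratins on the array had 1 or 2 probes each, ran from -0.17 (Krt8) to 0.22 (Krt71), and 6 were above 0. In every list with tested genes the median lay between 0.12 and 0.17, beside 0.15 for all tested genes of the chromosome.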

How the data were processed

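Both channels of 11 Agilent arrays were deposited as scanner files. The submitters' processing notes name Feature Extraction 10.5.1.1 and Partek, while the file headers of tumours 4, 7, 9 and 11 give version 11.0.1.1 of the former. The deposited intensity values are background-subtracted and dye-normalized by the authors' software, and the deposited LogRatio is log10 of red over green. The authors' value table, deposited as log2 ratios, served as an alternative.

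The log2 of processed red over green was averaged per probe without outlier spots and centred on the array median. Segments were found by optimal partitioning with at least 5 probes. Genes and bins were fitted on the whole table with limma 3.58.1 (R 4.3.3, Python 3.11.15, numpy 2.4.6, pandas 2.3.3, numba 0.67.0) with Benjamini-Hochberg adjustment. Only the fit of genes against the chromosome level was also run on simulated data. Signs there were drawn for each gene and tumour, which removes the correlation between genes of a tumour. Chromosome tests were exact sign-flip permutations. The samples' number limits precision. The members, lists and stretch were chosen with earlier results of these data known. Named are the sites, list members, the 5 highest and 5 lowest genes, neighbours of Myc, the genes of the distal stretch and genes at segment ends; calls under alternatives were added after their values were seen. Of 808 names, 553 matched a RefSeq table (GRCm38.p6), used for current symbols and gene order only. The tumours are separate animals with 1 array each. The values of 1 list member are not reported here.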

Additional observations from a re-analysis of the deposited data

How the results depend on the processing

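Besides the values given with the results, alternatives were centring on the mode, normexp background correction, leaving out dim probes or spots with a deposited LogRatio of 0, the authors' value table, a GC fit, tumour 11 turned, other thresholds, penalties, bin sizes and probe minimums, slide as a random block, and each tumour left out. The chromosome mean was 0.17 without tumours 9 and 11 (adjusted exact p = 0.052) and 0.13 to 0.16 with 1 tumour left out (adjusted exact p 0.026 to 0.052); every setting that kept all tumours stayed past the threshold. The proximal minus distal difference was -0.010 with tumour 11 turned, -0.0023 without tumours 9 and 11 and -0.0055 to 0.0040 with 1 tumour left out, never past the threshold. Gain calls covered the chromosome in 2 tumours at a threshold of 0.3, 5 at 0.15, 3 with normexp and 3 to 4 with 1 tumour left out. Genes called higher than liver numbered 69 with mode centring, 201 with normexp, 200 with tumour 11 turned, 249 without tumours 9 and 11, 222 with the slide block and 8 to 224 with 1 tumour left out. Genes above and below the chromosome level numbered 5 and 5 with normexp, 6 and 12 with tumour 11 turned, 2 and 4 without tumours 9 and 11, 3 and 1 with single-probe genes added, 2 and 3 with the slide block, and 0 to 2 and 0 to 5 with 1 tumour left out. The cause of these shifts was not tested. Fewer tumours entered the left-out fits, in which the count of genes called higher than liver fell in some and rose in others. Shares called over all genes are given for the main fit only. In the slide block fits the correlation within slides was -0.11 for genes against liver and -0.14 for genes against the chromosome level. No bin was called under any of the 23 alternatives run, and the bin spread against chromosome 3 kept its direction and side in all. Normexp was run on median signals, since mean signals were not used here for all arrays. No paired analysis was possible because all tumours form 1 group; each ratio already pairs a tumour with its own liver. Signal over background limits single probes and tumours 9 and 2, where 11.4% and 7.3% of chromosome 15 spots were not well above background. In the other arrays this share was at most 2.6%.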
